A study of Rattus norvegicus with 24 samples.

Results

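Ubiquitin conjugating (E2) and deubiquitinating (DUB) genes were examined in the medial gastrocnemius, a fast-twitch hindlimb muscle, of 24 rats. Members were chosen by symbol alone: Ube2 followed by a letter for the E2 family, and Usp followed by a number, Otub or Otud for the DUB family. This gave 79 of the 10851 entries. The E2 family held 28 entries with 27 symbols. The DUB family held 51 genes, of which 43 were put in the ubiquitin-specific protease (USP) class and 8 in the ovarian tumour (OTU) class. These classes were set by symbol alone, so enzymes of either class with other symbols are not in them. Usp6nl matches the pattern but is a GTPase-activating protein for Rab proteins, and leaving it out changed no count of DUB genes that passed a test. RefSeq lists 45 protein-coding E2 and 68 DUB symbols by the same pattern, of which 27 and 51 were measured. The others were not analysed here.

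The groups were Sed (saline, no training), Ex (saline, treadmill training), CC-Sed (monocrotaline, no training) and CC-Ex (monocrotaline, treadmill training), with 6 male Wistar rats in each, and every library came from 1 rat. Monocrotaline, a plant alkaloid given in a single injection, damages the lung vessels, overloads the right ventricle and leads to cardiac cachexia (CC), the wasting that accompanies heart failure. The age of the rats was not given in the sources used here. The study asked how CC changes the muscle with and without training, so CC-Sed was compared with Sed and CC-Ex with Ex. A pooled comparison, the mean of both CC groups minus the mean of both saline groups, was added to use all 24 rats.

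Ubiquitin is activated by an E1 enzyme, handed to an E2 enzyme and placed on a protein with the help of an E3 ligase. Chains of ubiquitin can send the protein to the proteasome, and DUBs take ubiquitin off again or edit the chains. The E2 often decides which linkage is built, and some E2s carry the ubiquitin-like proteins NEDD8 or ISG15 instead. In wasting muscle the pathway is best known for the E3 ligases Fbxo32 (atrogin-1) and Trim63 (MuRF1), while the E2 and DUB families are broad and serve most cell functions.

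Total estimated counts per rat lay between 37816239 and 50350554. The lowest count of any member in any rat was 15, and all 79 members stayed in the main edgeR tests. The alternative with a mean of at least 5 CPM left out members below that level, Ube2l6 among them. Levels are given as CPM, counts divided by the effective library size after TMM scaling, and they are compared between rats and not between genes, since gene lengths were not used. Of 10 skeletal muscle markers 8 were measured, and their summed level lay between 108862 and 259939 CPM in the 24 rats. Markers of other cells were read in the pooled comparison, in which 17.2% of all genes were higher and 10.6% lower. Of these markers, 3 of 5 fibroblast genes were lower. Their summed levels were 389 to 2793 CPM in Sed, 818 to 4862 in Ex, 470.3 to 1469 in CC-Sed and 149.9 to 1542 in CC-Ex. Of the 5 endothelial genes 2 were higher, with sums of 147 to 234 CPM in Sed, 163 to 224 in Ex, 178 to 261 in CC-Sed and 164 to 276 in CC-Ex. Of the 3 erythroid genes 2 were higher, with sums of 49.9 to 129.8 CPM in Sed, 92.2 to 209.6 in Ex, 50.5 to 409 in CC-Sed and 33.8 to 960.0 in CC-Ex. Of 2 adipocyte genes 1 was lower, and none of the 6 leukocyte, 6 slow-fibre or 2 Schwann cell genes passed. The slow-fibre sums still differed widely between rats and were not level across the groups. They were 773 to 4072 CPM (median 2083) in Sed and 1004 to 10798 (median 3712) in Ex. In the CC groups they were 1175 to 11914 (median 6344) in CC-Sed and 687 to 9171 (median 5468) in CC-Ex. The part of these cells in the results was not tested, and in whole muscle fewer cells of a type and less RNA per cell cannot be told apart.

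Among the risen members, the promoters of Ube2g2 and Ube2j1 are shown because both encode E2s that serve protein disposal at the endoplasmic reticulum (ER) and both held the same short motif. The motif is TGACGTGG, known as the unfolded protein response element, which appears here in capitals as its reverse complement. Sequences run 5′ to 3′ along the gene strand, from 250 bases before the annotated start to 50 after it, and come from RefSeq (GRCr8), whereas the counts rest on mRatBN7.2. The Ube2g2 window is chr20:11005011-11005310 on the minus strand, with the motif 59 to 52 bases before the start. The Ube2j1 window is chr5:52218557-52218856 on the plus strand, with the motif 76 to 69 bases before the start.
Ube2g2: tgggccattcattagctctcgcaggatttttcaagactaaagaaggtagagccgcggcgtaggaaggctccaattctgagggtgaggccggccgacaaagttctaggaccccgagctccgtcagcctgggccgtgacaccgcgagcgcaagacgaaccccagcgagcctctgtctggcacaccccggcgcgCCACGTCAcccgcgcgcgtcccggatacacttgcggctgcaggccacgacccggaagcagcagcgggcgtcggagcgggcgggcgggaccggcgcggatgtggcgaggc
Ube2j1: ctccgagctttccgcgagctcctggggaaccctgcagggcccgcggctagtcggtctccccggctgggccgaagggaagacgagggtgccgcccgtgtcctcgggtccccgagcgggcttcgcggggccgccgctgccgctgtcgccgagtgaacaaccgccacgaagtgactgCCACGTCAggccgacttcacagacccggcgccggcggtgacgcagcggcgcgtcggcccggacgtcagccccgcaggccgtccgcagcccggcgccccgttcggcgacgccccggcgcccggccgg

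Of 78 member symbols, 63 had a promoter in the RefSeq set. On either strand TGACGTGG lay in 2 of these 63 and in 0.595% of all 33469 promoters of the same length. Vcp, Uchl5 and Tnfaip3 held it among the 43 matched genes of the wider ubiquitin pathway. It was one of 14 patterns searched, all chosen after the values were seen. Among the others, the GC box GGGCGG lay in 74.6% of the member promoters and in 33.1% of all. The TATA box TATAAA lay in 6.35% and 14.2%. All promoters are therefore an unlike background for the members, and no enrichment is read from these shares. The longer ER stress response element (CCAAT, then 9 bases of any kind, then CCACG) was in 0 member promoters and in 0.0657% of all. The FoxO pattern GTAAACA was in that of 1 member, Usp47, and in 3.78% of all. The cyclic AMP response element TGACGTCA was in 0 member promoters and in 1.83% of all. A motif match describes the letters and shows no binding.

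In the pooled comparison 8 of 28 E2 entries passed (adjusted p under 0.05, edgeR quasi-likelihood test, adjusted over all genes), a share of 28.6% beside 27.8% of all genes. The E2 family was split evenly, with 4 genes higher (Ube2j1, Ube2o, Ube2g2 and Ube2h) and 4 lower (Ube2l6, Ube2d1, Ube2n and Ube2a). Of the 51 DUB genes 17 passed, a share of 33.3%, with 14 higher and 3 lower. Among all genes 17.2% were higher and 10.6% lower, against 27.5% and 5.88% of the DUB genes and 14.3% in each direction of the E2 entries. The median Log2FC was 0.00 over the E2 entries, 0.14 over the DUB genes and 0.01 over all genes. With upper-quartile scaling, which lowered the median Log2FC of all genes by 0.08, the split was 3 higher and 8 lower in the E2 family and 9 higher and 4 lower in the DUB family. At that scaling 27.0% of all genes passed. Their split by direction is not given here, so these family splits cannot be set beside one for all genes. By the criterion of the study, which also asks for a Log2FC of at least 1 in size, 0 E2 entries and 1 DUB gene (Usp53) passed, beside 2.88% of all genes. The DUB count rested partly on single rats, falling to 8 when CC-Sed replicate 1 was left out and to 10 when replicate 6 was, while the share of all genes fell to 20.6% and 20.3%.

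**Figure D1:**
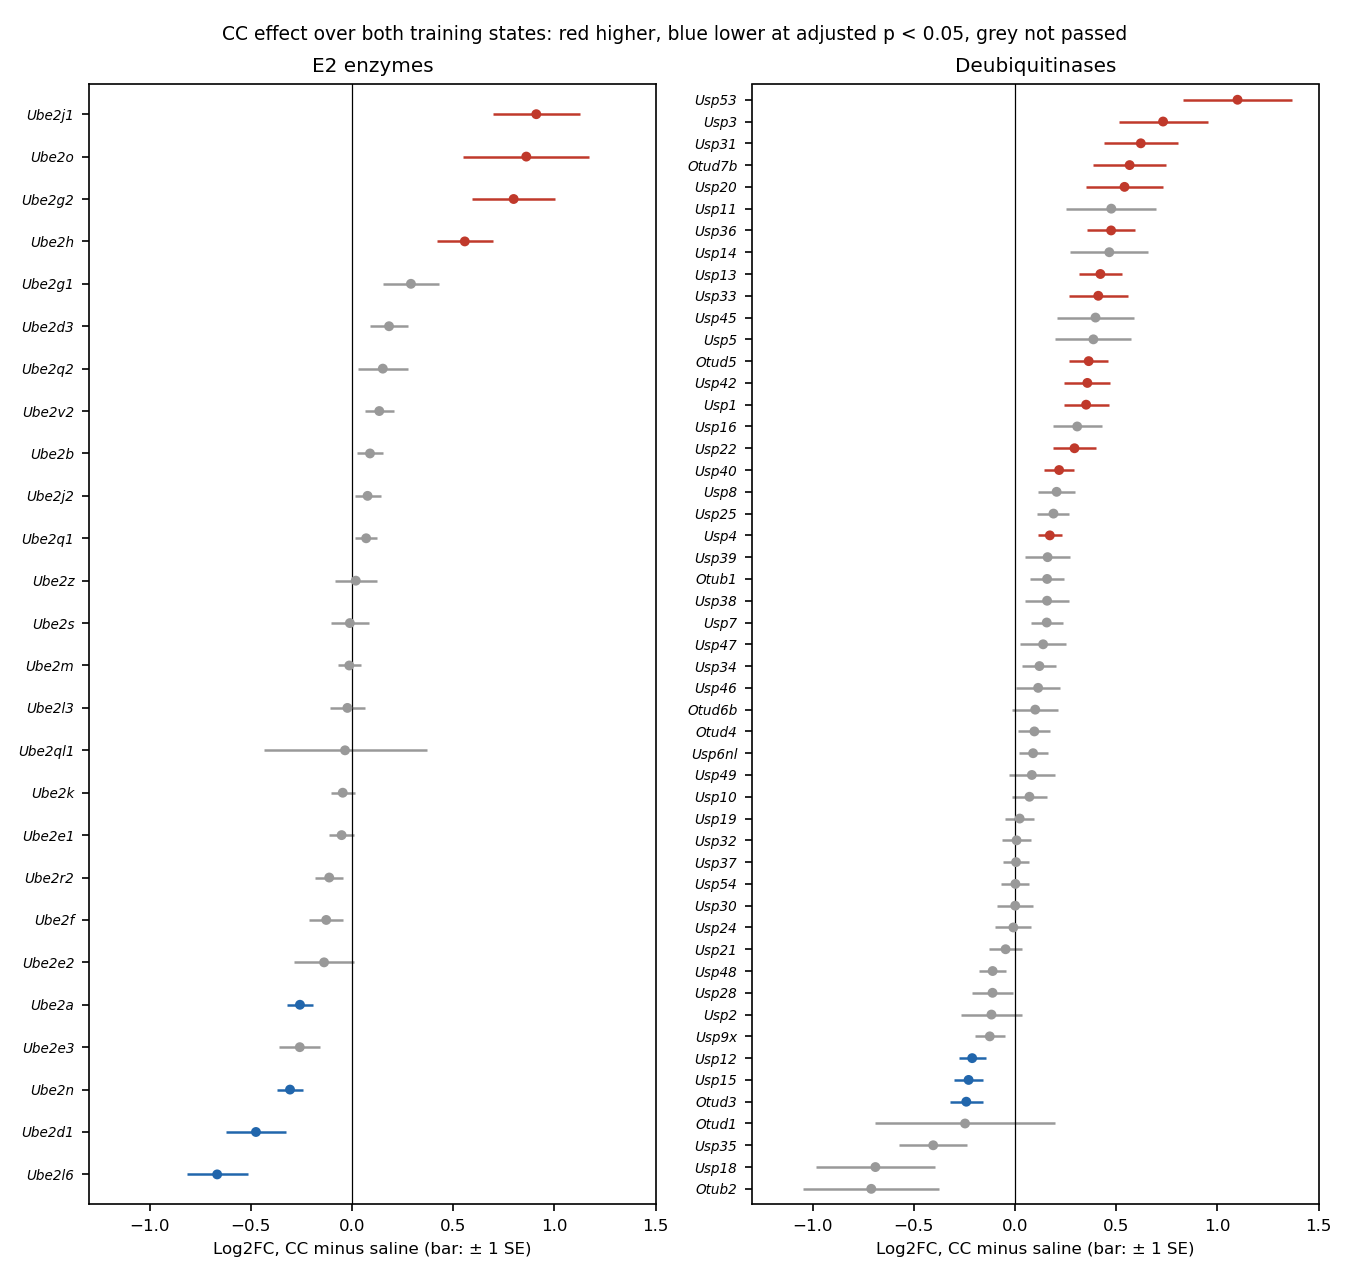
Pooled Log2FC of CC minus saline rats (x axis, log2 scale, bars ± 1 SE) for 26 of the 28 E2 entries and the 51 DUB genes, 12 rats on each side, with red for higher, blue for lower and grey for not passed. Log2FC was above 0 in 14 of all 28 E2 entries and in 38 of the 51 DUB genes.

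Of the risen E2 genes Ube2j1 had the highest Log2FC. Ube2j1, which is anchored in the ER membrane and acts in ER-associated degradation, had 3.21 to 4.77 CPM (median 3.93) in Sed, 3.77 to 5.06 (median 4.26) in Ex, 3.74 to 13.9 (median 7.32) in CC-Sed and 3.05 to 15.7 (median 6.80) in CC-Ex. Of the 12 CC rats 9 lay above the highest saline rat and 1 below the lowest. Its pooled Log2FC was 0.91 ± 0.21 (SE), a 1.88-fold rise with edgeR adjusted p = 0.00526.

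Ube2g2, a soluble E2 that works with ER-membrane ligases in the same degradation route, had 70.2 to 99.9 CPM (median 80.1) in Sed, 55.5 to 79.7 (median 68.1) in Ex, 77.0 to 173 (median 132) in CC-Sed and 70.7 to 338 (median 89.9) in CC-Ex. In each training state 4 of 6 CC rats lay above their whole saline group, and the others overlapped it. The rise was 1.74-fold (pooled Log2FC 0.80 ± 0.21 SE, edgeR adjusted p = 0.0083). Without CC-Ex replicate 5, the highest rat, the Log2FC was 0.51 (edgeR adjusted p = 0.0051). The related Ube2g1 did not pass (Log2FC 0.29 ± 0.14 SE, edgeR adjusted p = 0.109), nor did Ube2j2, also ER-anchored (Log2FC 0.08 ± 0.06 SE, edgeR adjusted p = 0.374). Ube2g1 was called higher with a slow-fibre score, the mean log2 CPM of slow-fibre markers, as a covariate.

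Ube2h, the E2 of the multi-subunit CTLH ligase, had 77.1 to 119 CPM (median 88.9) in Sed, 70.1 to 106 (median 84.3) in Ex, 123 to 159 (median 135) in CC-Sed and 70.8 to 231 (median 109.6) in CC-Ex. All 6 CC-Sed rats lay above every Sed rat, and 3 of 6 CC-Ex rats above every Ex rat. The pooled rise was 1.47-fold (Log2FC 0.56 ± 0.14 SE, edgeR adjusted p = 0.00713).

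Ube2o, a large enzyme that joins E2 and E3 activity and is known from red cell maturation, had 30.1 to 55.2 CPM (median 34.4) in Sed, 28.1 to 41.2 (median 33.6) in Ex, 29.9 to 111 (median 49.1) in CC-Sed and 26.7 to 236 (median 34.3) in CC-Ex. A single rat set the top of CC-Ex: replicate 5 had 236 CPM and the next rat 35.4. The pooled Log2FC of 0.86 ± 0.31 (SE) (edgeR adjusted p = 0.0424) was 0.32 without that rat and did not pass (edgeR adjusted p = 0.143). The Ube2o call held in 11 of 24 leave-one-out fits. It was also lost with upper-quartile scaling, with limma-voom and with the replicate number as a block.

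**Figure D2:**
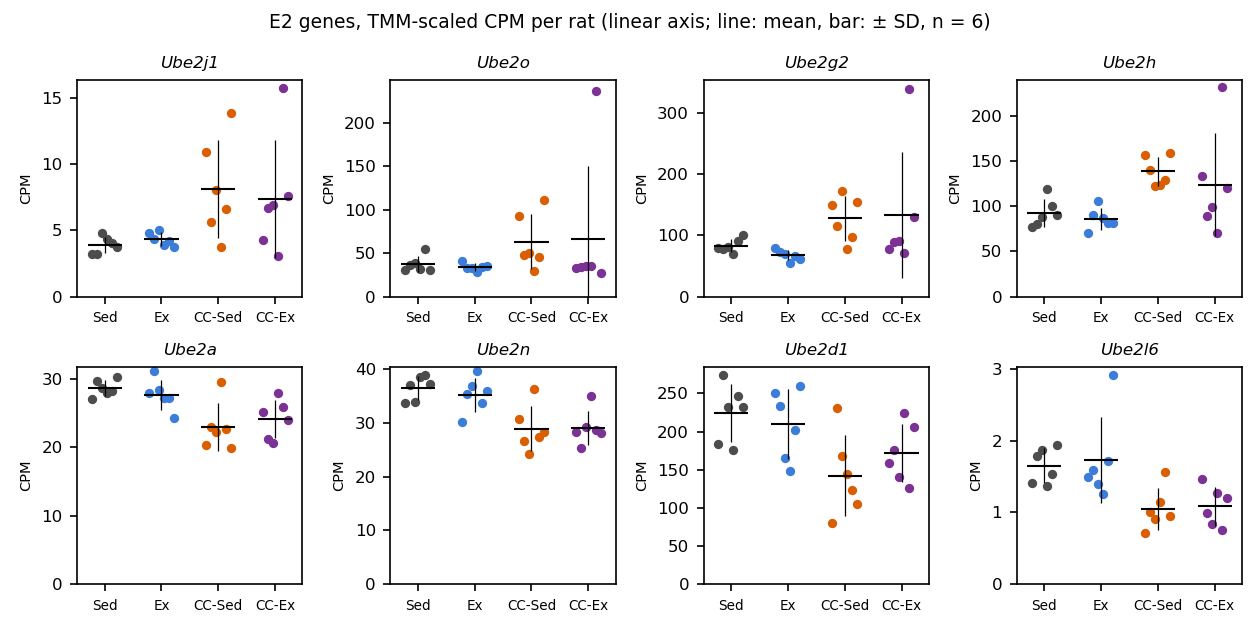
TMM-scaled CPM (y axis) of the 8 E2 genes that passed the pooled test, one point per rat, 6 rats per group, with lines for the mean and bars for ± SD. CC-Ex replicate 5 is the high point of the risen genes (236 CPM in Ube2o and 338 in Ube2g2), while in the 4 lowered genes this rat does not stand apart.

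The 4 lowered E2 genes differ in what they carry or build. Ube2n, which pairs with Ube2v1 or Ube2v2 to build lysine-63-linked chains, had 33.7 to 38.9 CPM (median 37.2) in Sed, 30.2 to 39.6 (median 35.7) in Ex, 24.3 to 36.4 (median 27.9) in CC-Sed and 25.4 to 35.0 (median 28.5) in CC-Ex. All 12 CC rats were below the saline median and 9 were below the lowest saline rat. Its level was 1.24-fold lower (pooled Log2FC −0.31 ± 0.07 SE), with the smallest edgeR adjusted p of both families (0.00303). Its partner Ube2v2, which lacks the active cysteine, did not pass (Log2FC 0.13 ± 0.07 SE, edgeR adjusted p = 0.149). With the slow-fibre score as a covariate Ube2v2 was called higher.

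Ube2l6, the E2 of the interferon-induced modifier ISG15, had 1.36 to 1.94 CPM (median 1.66) in Sed, 1.26 to 2.92 (median 1.55) in Ex, 0.709 to 1.56 (median 0.980) in CC-Sed and 0.751 to 1.46 (median 1.10) in CC-Ex. The counts were low, between 32 and 137 per rat, yet all 12 CC rats were below the saline median and 9 below the lowest saline rat. The level was 1.59-fold lower (pooled Log2FC −0.67 ± 0.15 SE, edgeR adjusted p = 0.00407), and the call was lost with the library number of the labels as a covariate. Library numbers 1 to 6 were all CC rats, so this covariate is partly confounded with CC. The alternative with a mean of at least 5 CPM left Ube2l6 out, so its call was not tested there. Usp18, the protease that removes ISG15, did not pass (Log2FC −0.69 ± 0.29 SE, edgeR adjusted p = 0.0773). It was called lower with DESeq2, with the slow-fibre score as a covariate and without CC-Sed replicate 6.

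Ube2a, a homologue of yeast Rad6 that serves histone H2B ubiquitination, had 27.1 to 30.3 CPM (median 28.5) in Sed, 24.3 to 31.2 (median 27.6) in Ex, 20.0 to 29.6 (median 22.4) in CC-Sed and 20.7 to 28.02 (median 24.6) in CC-Ex. Of the 12 CC rats 8 were below the lowest saline rat. The pooled Log2FC was −0.26 ± 0.07 (SE) with edgeR adjusted p = 0.00788. Ube2b, the close copy of Ube2a and an E2 long studied in muscle wasting, did not pass (Log2FC 0.09 ± 0.07 SE, edgeR adjusted p = 0.307).

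Ube2d1, of the broadly used Ube2d class, had 175 to 275 CPM (median 232) in Sed, 148 to 259 (median 217) in Ex, 79.9 to 231 (median 134) in CC-Sed and 126 to 224 (median 167) in CC-Ex. All 12 CC rats were below the saline median, and 6 were below the lowest saline rat. The level was 1.39-fold lower (pooled Log2FC −0.48 ± 0.15 SE, edgeR adjusted p = 0.0218). Its relative Ube2d3 did not pass (Log2FC 0.18 ± 0.09 SE, edgeR adjusted p = 0.139). How reads were shared among the close copies Ube2a and Ube2b, Ube2d1 and Ube2d3, and the Ube2e genes was not tested, so their separate values are uncertain to that extent.

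Of the 28 E2 entries, 20 did not pass. Ube2m and Ube2f, the E2s of NEDD8, had pooled Log2FCs of −0.01 ± 0.06 (SE) and −0.13 ± 0.09 (SE). Ube2e3 was closest to passing (Log2FC −0.26 ± 0.10 SE, edgeR adjusted p = 0.058), with a median of 33.6 CPM in Sed and 26.1 in CC-Sed. It was called lower with upper-quartile scaling, a mean of at least 5 CPM, limma-voom and the library number as a covariate. Without CC-Sed replicate 2, CC-Sed replicate 4 or CC-Ex replicate 4 it was called lower too. Ube2e1 had a Log2FC of −0.05 and Ube2e2 one of −0.14. The 95% interval of Ube2m ran from −0.12 to 0.10 and that of Ube2f from −0.29 to 0.04. Ube2f did not pass in edgeR with all rats (adjusted p = 0.255), but it was called lower with upper-quartile scaling, with limma-voom and without CC-Ex replicate 5, and by limma-voom also within the trained rats.

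Among the DUBs, Usp53 had the highest Log2FC. Usp53, a USP family protein known from tight junctions, had 13.1 to 16.6 CPM (median 14.8) in Sed, 12.4 to 19.9 (median 15.3) in Ex, 16.2 to 53.9 (median 29.1) in CC-Sed and 12.2 to 96.9 (median 21.2) in CC-Ex. Of the 12 CC rats 8 lay above every saline rat and 1 below every one. Its pooled Log2FC was 1.10 ± 0.27 (SE), 2.14-fold with edgeR adjusted p = 0.00646. Without CC-Ex replicate 5 it was 0.71 and passed (edgeR adjusted p = 0.00571). Its paralogue Usp54 had a pooled Log2FC of 0.00 ± 0.07 (SE).

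Next in Log2FC among the risen DUBs was Usp3. Usp3, which removes ubiquitin from histone H2A, had 8.26 to 9.72 CPM (median 8.59) in Sed, 6.31 to 9.35 (median 8.37) in Ex, 7.81 to 19.5 (median 12.8) in CC-Sed and 7.61 to 38.4 (median 8.90) in CC-Ex. Above their whole saline group lay 5 of 6 CC-Sed and 2 of 6 CC-Ex rats. The pooled Log2FC was 0.73 ± 0.22 (SE) (edgeR adjusted p = 0.0191), and 0.41 without CC-Ex replicate 5 (edgeR adjusted p = 0.0199).

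Usp36, a nucleolar DUB, had 23.3 to 27.1 CPM (median 25.2) in Sed, 21.1 to 27.7 (median 24.9) in Ex, 28.7 to 38.3 (median 36.1) in CC-Sed and 25.5 to 64.6 (median 28.7) in CC-Ex. CC-Sed and Sed did not overlap, and 10 of 12 CC rats lay above every saline rat. Its rise was 1.39-fold (pooled Log2FC 0.47 ± 0.12 SE, edgeR adjusted p = 0.00726). Usp42 (0.36 ± 0.11 SE), Usp1 (0.35 ± 0.11 SE), which acts on DNA repair proteins, and Usp22 (0.29 ± 0.11 SE), the DUB of the SAGA coactivator complex, also rose in pooled Log2FC. Usp42 and Usp1 lost the call without CC-Sed replicate 1 or 6, and Usp22 passed in 7 of 24 leave-one-out fits.

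Usp13, a relative of the chain-disassembling Usp5, had 534 to 621 CPM (median 564) in Sed, 545 to 617 (median 578) in Ex, 646 to 996 (median 746) in CC-Sed and 595 to 1248 (median 668) in CC-Ex. CC-Sed and Sed did not overlap, and all 12 CC rats were above the saline median. The level was 1.34-fold higher (pooled Log2FC 0.42 ± 0.11 SE, edgeR adjusted p = 0.00754). Usp5 itself did not pass (Log2FC 0.39 ± 0.19 SE, edgeR adjusted p = 0.12).

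The other risen USP genes were Usp31, Usp20, Usp33, Usp40 and Usp4. Usp31 had 3.29 to 6.64 CPM (median 4.58) in the 12 saline rats and 3.10 to 14.4 (median 7.07) in the 12 CC rats, and its pooled Log2FC was 0.62 ± 0.18 (SE) (edgeR adjusted p = 0.0173). The paralogues Usp20 (0.54 ± 0.19 SE, edgeR adjusted p = 0.0394) and Usp33 (0.41 ± 0.14 SE, edgeR adjusted p = 0.0387) are known for acting on the beta-adrenergic receptor. Both lost the call without CC-Ex replicate 5 (Log2FC 0.42 and 0.23), and also without several other single rats, saline rats among them. Usp20 passed in 12 and Usp33 in 13 of 24 leave-one-out fits. The smallest rises were those of Usp40 (0.22 ± 0.08 SE) and Usp4 (0.17 ± 0.06 SE). Usp4 and Usp22 also lost the call without CC-Ex replicate 5 (Log2FC 0.12 and 0.19), and Usp40 passed in 11 of 24 leave-one-out fits. Usp4 lost it without other single rats too, among them Sed replicate 1 and Ex replicate 4.

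**Figure D3:**
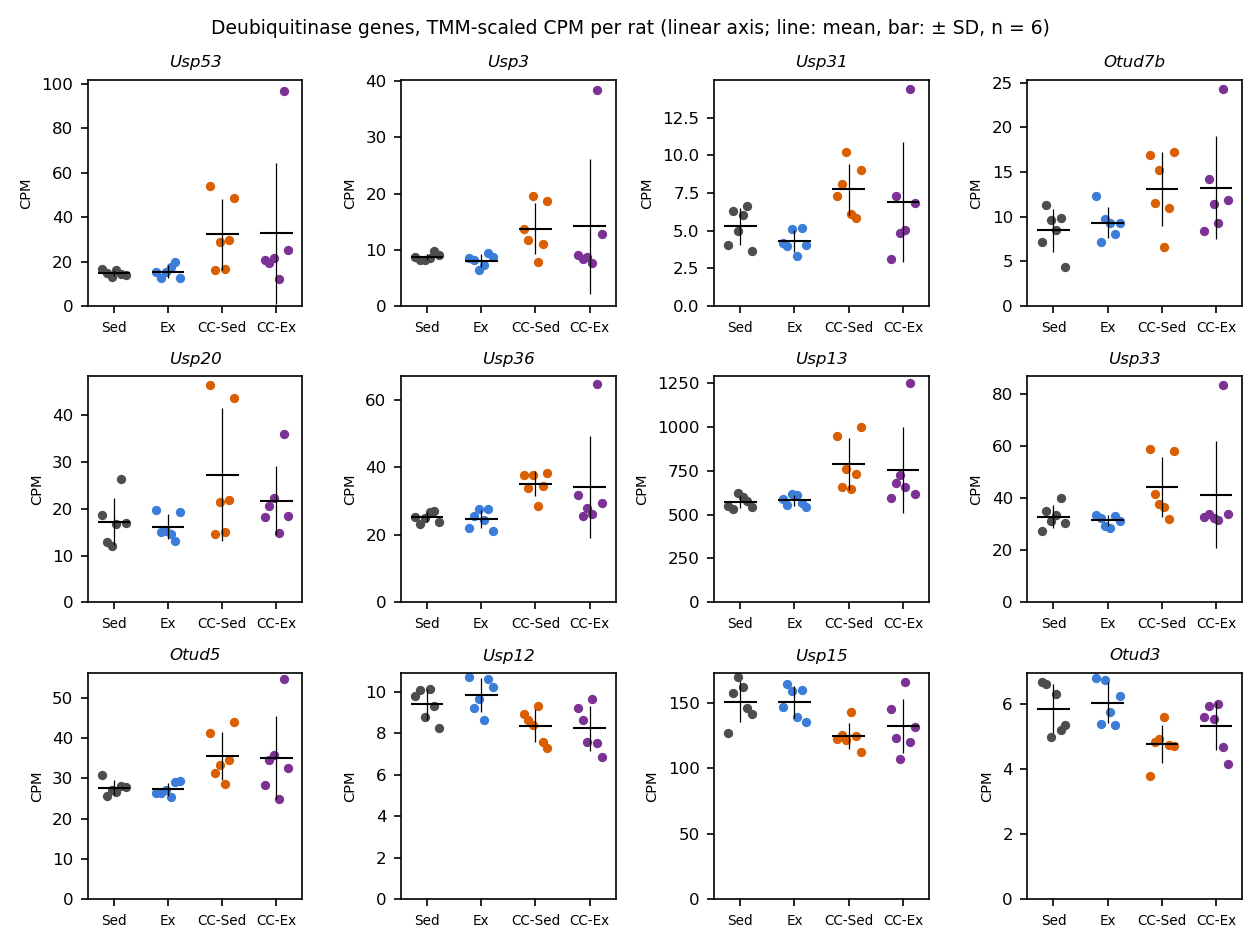
TMM-scaled CPM (y axis) of 9 raised and the 3 lowered DUB genes that passed the pooled test, one point per rat, 6 per group, with lines for the mean and bars for ± SD. In Usp36 and Usp13 all CC-Sed points lie above all Sed points, while in Usp33 CC-Ex replicate 5 (83.5 CPM) stands apart from the other 5 CC-Ex rats.

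In the OTU class, which here means the Otub and Otud symbols, 3 of 8 genes passed, a share of 37.5% beside 27.8% of all genes. Otud7b, also called Cezanne, which cleaves lysine-11-linked chains, had 4.41 to 11.3 CPM (median 9.08) in Sed, 7.17 to 12.4 (median 9.31) in Ex, 6.56 to 17.3 (median 13.4) in CC-Sed and 8.43 to 24.3 (median 11.6) in CC-Ex. The groups overlapped, and the pooled Log2FC of 0.57 ± 0.18 (SE) (edgeR adjusted p = 0.0249) became 0.41 without CC-Ex replicate 5 and did not pass (edgeR adjusted p = 0.0571). The Otud7b call held in 21 of 24 leave-one-out fits. Otud5 had 25.4 to 30.9 CPM (median 27.1) in the 12 saline rats and 24.9 to 54.8 (median 33.9) in the 12 CC rats, with 9 CC rats above every saline rat. Its rise was 1.29-fold (pooled Log2FC 0.36 ± 0.10 SE, edgeR adjusted p = 0.0105).

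Otud3 had 5.00 to 6.80 CPM (median 5.99) in the 12 saline rats and 3.77 to 6.00 (median 4.88) in the 12 CC rats, with 7 CC rats below every saline rat (Log2FC −0.24 ± 0.08 SE, edgeR adjusted p = 0.0317). The Otud3 call held in 17 of 24 leave-one-out fits. Otub1, an OTU protein that also inhibits Ube2n by binding it, did not pass (Log2FC 0.16 ± 0.08 SE, edgeR adjusted p = 0.155). With the library number as a covariate Otub1 was called higher. Otub2 lay between 10.2 and 13.2 CPM in the Sed rats but between 1.24 and 13.2 in the CC-Sed rats, and its Log2FC of −0.71 ± 0.34 (SE) did not pass (edgeR adjusted p = 0.11). It was called lower with limma-voom and without CC-Sed replicate 4. Otud1 ran from 2.65 to 47.1 CPM within CC-Ex alone (Log2FC −0.25 ± 0.44 SE).

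The lowered USP genes were Usp15, a paralogue of Usp4 known from TGF-beta signalling, and Usp12. Usp15 had 127 to 169.8 CPM (median 152) in the 12 saline rats and 107 to 166 (median 124) in the 12 CC rats, and 8 CC rats were below every saline rat (Log2FC −0.23 ± 0.07 SE, edgeR adjusted p = 0.0198). Usp12 had 8.27 to 10.7 CPM (median 9.74) in the 12 saline rats and 6.88 to 9.67 (median 8.52) in the 12 CC rats, and all 12 CC rats were below the saline median (Log2FC −0.21 ± 0.07 SE, edgeR adjusted p = 0.024). The paralogues Usp4 and Usp15 passed in opposite directions, and with upper-quartile scaling Usp15 stayed lower while Usp4 did not pass.

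Other DUBs of interest in muscle did not pass. Usp14, which sits on the proteasome, had 47.2 to 70.5 CPM (median 53.1) in Sed, 48.3 to 57.2 (median 49.9) in Ex, 43.6 to 123 (median 64.0) in CC-Sed and 45.96 to 159 (median 53.5) in CC-Ex. Its Log2FC was 0.47 ± 0.19 (SE) with edgeR adjusted p = 0.0701, and it passed with the slow-fibre score as a covariate and without CC-Sed replicate 4 or CC-Ex replicate 1. Usp19, a DUB studied in muscle atrophy, had a Log2FC of 0.02 ± 0.07 (SE) with a 95% interval of −0.12 to 0.16, which leaves out a 2-fold change. Usp2, known as a clock output gene, had −0.12 ± 0.15 (SE), and Usp9x had −0.13 ± 0.07 (SE). Upper-quartile scaling and limma-voom each called Usp9x lower. Usp30 of the mitochondrial surface had 0.00 ± 0.09 (SE), Usp10 0.07 ± 0.09 (SE) and Usp39, which acts in splicing, 0.16 ± 0.11 (SE). The paralogues Usp25 (0.19 ± 0.08 SE, edgeR adjusted p = 0.0726) and Usp28 (−0.11 ± 0.10 SE) had opposite signs without passing. Usp25 was called higher with the slow-fibre score and without Ex replicate 1 or CC-Sed replicate 4, and Usp28 lower with limma-voom. Usp35 (−0.40 ± 0.17 SE) had an edgeR adjusted p of 0.07. It was called lower with DESeq2, limma-voom, the library number and the replicate block, and without CC-Sed replicate 3 or CC-Ex replicate 4.

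Within the sedentary rats 3 of 28 E2 entries and 0 of 51 DUB genes passed, beside 6.46% of all genes. Ube2j1 was higher (Log2FC 1.06 ± 0.30 SE, edgeR adjusted p = 0.0429), as were 4.3% of all genes. Ube2n (−0.34 ± 0.09 SE, edgeR adjusted p = 0.0381) and Ube2a (−0.32 ± 0.09 SE, edgeR adjusted p = 0.0448) were lower, as were 2.16% of all genes. Ube2j1 also had a Log2FC of at least 1, and 1.87% of all genes passed with a Log2FC of at least that size. These calls were near the threshold: among 12 leave-one-out fits, Ube2j1 passed in 2, Ube2n in 3 and Ube2a in 2.

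At an unadjusted p under 0.05 there were 8 E2 entries and 18 DUB genes in the sedentary rats, beside 28.4% of all genes. Of the 18 DUB genes 14 were higher, as were 16.7% of all genes. DESeq2 called 3 DUB genes (Usp53, Usp40 and Usp13) and 12.3% of all genes, and limma-voom with quality weights called 11 DUB genes and 22.8% of all genes. Without CC-Sed replicate 4 edgeR called 6 E2 and 10 DUB genes, and 15.9% of all genes. The smallest edgeR adjusted p among the DUBs was that of Usp40 (Log2FC 0.35 ± 0.11 SE, edgeR adjusted p = 0.0531), followed by Usp13 (0.47 ± 0.15 SE, edgeR adjusted p = 0.0602) and Usp53 (1.12 ± 0.38 SE, edgeR adjusted p = 0.0704).

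Within the trained rats edgeR called 0 E2 and 0 DUB genes, beside 0.995% of all genes, or 0.525% with a Log2FC of at least 1 in size. At an unadjusted p under 0.05 there were 8 E2 entries and 10 DUB genes, beside 22.6% of all genes. DESeq2 called 2 E2 genes (Ube2g2 and Ube2l6), 0 DUB genes and 6.31% of all genes, and limma-voom called 4 E2 genes, 1 DUB gene (Usp15) and 9.61% of all genes. Without CC-Ex replicate 4 edgeR called 4 E2 genes (Ube2g2, Ube2j1, Ube2h and Ube2n), 3 DUB genes (Usp42, Otud5 and Usp53) and 7.81% of all genes. The smallest edgeR adjusted p were those of Ube2g2 (Log2FC 0.97 ± 0.29 SE, edgeR adjusted p = 0.0813), Ube2l6 (−0.67 ± 0.21 SE, edgeR adjusted p = 0.0884) and Ube2n (−0.28 ± 0.09 SE, edgeR adjusted p = 0.106). Among the DUBs Usp53 came first (1.08 ± 0.38 SE, edgeR adjusted p = 0.12).

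The comparisons in sedentary and in trained rats share no animals. The sign of the Log2FC was the same in both for 23 of 28 E2 entries (82.1%) and 45 of 51 DUB genes (88.2%), beside 81.0% of all genes. Usp53 (1.12 and 1.08), Ube2l6 (−0.66 and −0.67) and Usp36 (0.48 and 0.47) had nearly equal Log2FCs in both. In the trained rats, CC-Ex replicate 5 stood far above the next CC-Ex rat in Usp53 (96.9 against 25.1 CPM) and Usp36 (64.6 against 31.96 CPM). Without that rat the pooled Log2FC fell from 1.10 to 0.71 in Usp53 and from 0.47 to 0.31 in Usp36. The near match of these genes therefore depends on that rat. Across genes, which are not independent replicates, Pearson's r between the comparisons was 0.89 for the E2 entries, 0.85 for the DUB genes and 0.80 for all genes. A call in one comparison and not in the other is not a difference between them, and no member passed the interaction test.

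**Figure D4:**
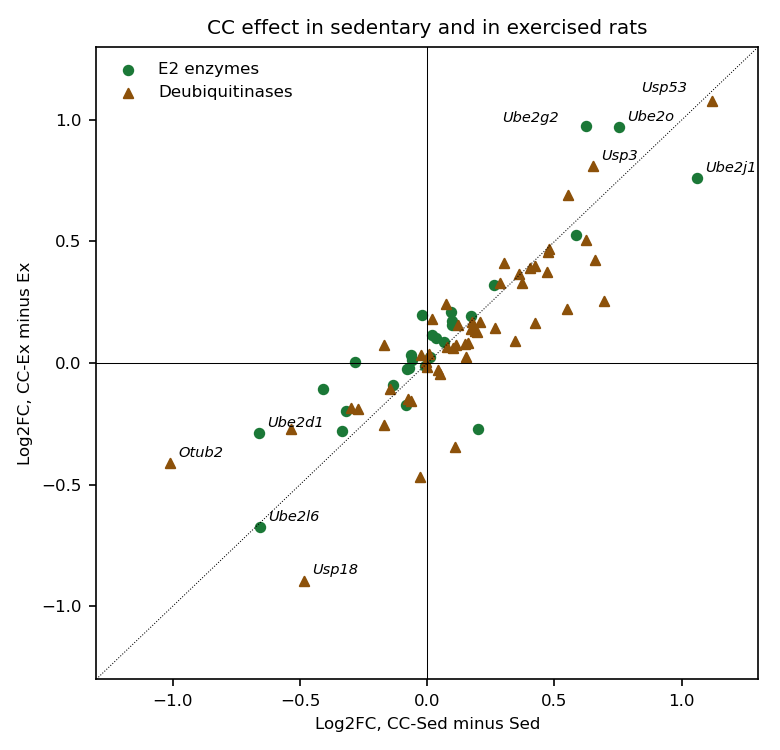
Log2FC of CC-Sed minus Sed (x axis, log2 scale) against that of CC-Ex minus Ex (y axis, log2 scale), 1 point for each of the 28 E2 entries and 51 DUB genes. Usp53 lies at 1.12 and 1.08 in the upper right, and Ube2l6 at −0.66 and −0.67 in the lower left. The trained value of Usp53 includes CC-Ex replicate 5, at 96.9 CPM with the next CC-Ex rat at 25.1.

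For training, Sed vs. Ex, CC-Sed vs. CC-Ex and the interaction each gave 0 of 79 members in edgeR, beside 0% of all genes, and 0 of the 79 had an unadjusted p under 0.05, beside 1.09%, 2.16% and 1.42% of all genes. DESeq2 and limma-voom also called 0 in each. In Sed vs. Ex the Log2FCs of the members lay between −0.37 and 0.47, and for 75 of 79 the 95% interval lay within −1 to 1, which leaves out a 2-fold change. The exceptions were Otub2, Otud1, Ube2ql1 and Usp18. In CC-Sed vs. CC-Ex they lay between −0.39 and 0.32, and 76 of 79 intervals were within −1 to 1. For the interaction, the change of the CC effect with training, 67 of 79 intervals were, and among the other 12 were Ube2j1, Ube2g2, Ube2o, Usp53 and Usp3. The smallest unadjusted p were those of Usp40 in Sed vs. Ex (edgeR, 0.103, Log2FC 0.18) and for the interaction (0.102, Log2FC −0.26), and of Usp2 in CC-Sed vs. CC-Ex (0.0796, Log2FC −0.39).

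The CC rats differed widely from each other, and the risen members were mostly high in the same rats, as were other genes. CC-Ex replicate 5 was the highest of the 12 CC rats in 16 of the 18 risen members and in 62.1% of all 1865 genes that were higher in the pooled comparison, Fbxo32 left out. CC-Sed replicate 6 was among the highest 3 in 18 of 18 and in 64.7% of those genes. CC-Ex replicate 4 was the lowest in 10 of 18, beside 37.8%, and like CC-Sed replicate 4 it lay within the range of the saline rats in 14 of 18. CC-Ex replicate 5 was the lowest in 0 of the 7 lowered members, beside 45.9% of all lowered genes, and CC-Sed replicate 1 was the lowest in 3, beside 12.0%. Without CC-Ex replicate 5 the pooled calls were 8 E2 genes (3 higher, 5 lower), 12 DUB genes (9 higher, 3 lower) and 24.1% of all genes. That rat and CC-Ex replicate 4 had slow-fibre scores, the mean log2 CPM of 6 slow-fibre markers, of 2.45 and 3.00, against 4.81 to 10.3 in the other CC rats. With that score as a covariate, all 25 members that had passed did so again, among 32 in all, and 36.3% of all genes passed.

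**Figure D5:**
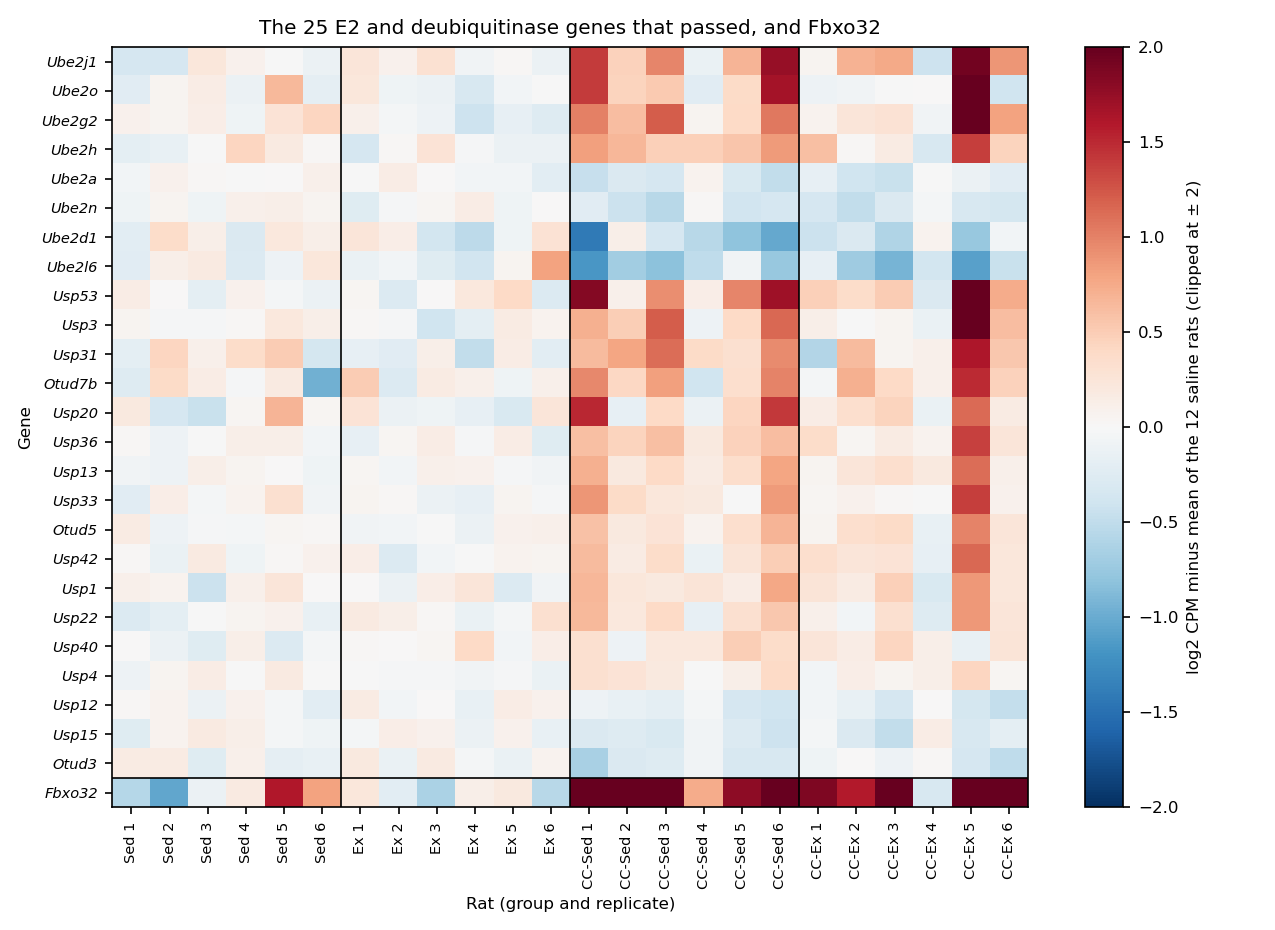
Log2 CPM minus the mean of the 12 saline rats (colour, clipped at ± 2) for the 25 E2 and DUB genes that passed the pooled test and for the E3 ligase Fbxo32, with 1 column per rat in group order. CC-Ex replicate 5, with 2755 CPM of Fbxo32, is high in most risen genes, and CC-Ex replicate 4, with 86.0 CPM, is close to the saline rats.

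The same rats were high in Fbxo32, the atrogin-1 ligase, which had 2755 CPM in CC-Ex replicate 5 and 86.0 CPM in CC-Ex replicate 4. Over the 12 CC rats the log2 CPM of the 25 members that passed were related to that of Fbxo32, with two-sided permutation p-values adjusted over the 25 relations. Of the 18 risen members 17 had an adjusted permutation p under 0.05 by both Pearson's r and Spearman's rho, the exception being Usp40 (r = −0.21, rho = 0.03). Ube2j1 had r = 0.90 (adjusted permutation p = 0.000875) and rho = 0.89 (adjusted permutation p = 0.00194). Usp22 had r = 0.92 (adjusted permutation p = 0.0005) and rho = 0.91 (adjusted permutation p = 0.001). Of the 7 lowered members 3 passed by both measures, with r of −0.72 for Usp15, −0.70 for Otud3 and −0.64 for Ube2l6. Relations of this size were common among other genes. The lowest r (0.68) and the lowest rho (0.64) among the 17 risen members were both reached by 55.2% of the 1865 genes higher in the pooled comparison and by 16.5% of all genes. The median r was 0.82 over the 18 risen members and 0.73 over those 1865 genes. Among the 3 lowered members the weakest r was −0.64 and the weakest rho −0.68, and values as low in both were reached by 35.9% of the 1151 lowered genes and by 11.3% of all genes, and the median r was −0.57 over the 7 lowered members and −0.61 over the lowered genes.

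Without CC-Ex replicates 4 and 5, the rats farthest from the Fbxo32 median, the median r of the 18 risen members was 0.69, beside 0.82 with all 12 rats. For Ube2j1 it was 0.80 and for Usp53 0.65. Within CC-Sed alone r was 0.83 for Ube2j1 and 0.60 for Usp53, and within CC-Ex alone 0.95 and 0.93. In the 12 saline rats r was 0.21 for Ube2j1 and 0.06 for Usp53. All genes of a rat share its library and scaling, and these members had been picked for differing between CC and saline rats.

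Other genes of the ubiquitin pathway were read in the same pooled comparison, in which 17.2% of all genes were higher and 10.6% lower. None of the 7 E1 genes passed (median Log2FC −0.09). Among 6 other E2 or E2-like genes only Aktip passed, and it was lower (−0.21 ± 0.08 SE). Of 12 muscle E3 ligases, Fbxo32 (2.82 ± 0.45 SE), Trim63 (2.40 ± 0.47 SE) and Fbxo30 (1.33 ± 0.35 SE) rose and Trim32 fell (−0.38 ± 0.13 SE). Of 20 DUBs whose symbols lie outside the Usp, Otub and Otud patterns, whatever their enzyme class, 6 rose and 0 fell. The 6 were Mindy1 (1.49 ± 0.35 SE), Cyld (0.37 ± 0.12 SE), Yod1 (0.34 ± 0.12 SE), Cops5 (0.27 ± 0.08 SE), Zup1 (0.25 ± 0.05 SE) and Atxn3 (0.24 ± 0.08 SE). Of 6 genes of the p97 complex, which pulls ubiquitinated proteins out of the ER membrane, Nploc4 (0.85 ± 0.24 SE), Ufd1 (0.45 ± 0.14 SE) and Faf1 (0.29 ± 0.08 SE) rose, while Vcp itself did not pass (0.39 ± 0.15 SE, edgeR adjusted p = 0.0566). CC-Ex replicate 5 stood far above the next CC-Ex rat in several of these genes. It had 638 CPM in Nploc4 (next 184), 116 in Ufd1 (next 60.8), 123 in Fbxo30 (next 25.9) and 143 in Mindy1 (next 26.5). In Cyld, Yod1 and Zup1 it was not the highest CC-Ex rat. Fits of these pathway genes without that rat are not given here.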

How the data were processed

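RNA of the medial gastrocnemius was sequenced in 24 rats, 6 per group by the labels. The authors trimmed reads with Trim Galore, quantified them with Salmon on the Ensembl mRatBN7.2 transcriptome and summed them to genes with tximport, and they deposited the estimated counts as whole numbers, with no value below 10. Genes under that minimum are therefore not analysed here. The submitters' notes also name DESeq2 1.44.0.

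Estimated counts were used as deposited in edgeR 4.0.16 (R 4.3.3), with TMM scaling and quasi-likelihood tests in a 4-group model of all rats. The low-count filter removed 0 of 10851 genes, and p-values were adjusted by Benjamini-Hochberg over all of them. A gene passed at an adjusted p under 0.05. SE is the Log2FC divided by the square root of F, and 95% intervals use 1.96 SE. DESeq2 1.42.0 and limma 3.58.1 served as alternatives, beside scaling, filters, covariates, the replicate block and leaving out each rat. Correlations used 100000 permutations in SciPy 1.17.1. Methods were tested on simulated counts. Of 67 genes changed 1.5-fold, edgeR found 16 in the sedentary comparison and 40 in the pooled one. It found 66 of 66 genes changed 4-fold in both. Absence of a call therefore does not exclude a change of 1.5-fold. Both CC groups were given the same changes, so the interaction test was not checked.

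No columns were left unused. No 2 libraries agreed within sampling noise (the smallest chi-square per degree of freedom was 28.1). Estimated counts carry mapping uncertainty that these tests do not include. The p-values for Log2FCs set a difference between groups against the spread between rats. Permutations for the correlations shuffled the CC rats without regard to training. The rule for named genes took members with an adjusted p under 0.05 (at most the 12 with the largest absolute Log2FC per family and comparison), the 4 of each family with the smallest p in each comparison other than the pooled ones, and members of known role. Usp15 and Usp4, which passed beyond it, and Ube2j2, Ube2ql1 and Usp47, which did not pass, were named after their values were seen. Some genes of these families and of the pathway are not reported here. Members and gene lists were chosen with earlier results of these data known.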

Additional observations from a re-analysis of the deposited data

Results flagged for a closer look

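A rat was singled out where its gap to the next rat of its group of 6, as a share of the group's range, was above Dixon's 95% critical value. Chance alone does this in about 1 of 20 groups of independent, normally distributed values. The genes named share the same rats, and many were chosen for differing in CC rats, so that rate does not apply here. Of 204 groups of the genes named, 31 were flagged. CC-Ex replicate 5 gave 20 of the 31. Its CPM, with the next highest CC-Ex rat in parentheses, was 338 (129.9) in Ube2g2, 236 (35.4) in Ube2o, 15.7 (7.58) in Ube2j1, 288 (166) in Ube2g1 and 313 (224) in Ube2d3. Among the DUBs it was 1248 (724) in Usp13, 96.9 (25.1) in Usp53, 64.6 (31.96) in Usp36, 83.5 (34.04) in Usp33, 38.4 (12.9) in Usp3, 35.9 (22.2) in Usp20 and 14.4 (7.30) in Usp31. It was 24.3 (14.2) in Otud7b, 54.8 (35.8) in Otud5, 16.9 (9.53) in Usp42, 159 (56.2) in Usp14, 147 (67.1) in Usp5, 50.5 (28.3) in Usp39, 39.6 (27.8) in Otub1 and 11.8 (8.84) in Usp30. This rat also had the highest Fbxo32 (2755 CPM) and Trim63 (4846 CPM) of the CC rats and the lowest slow-fibre score (2.45), and the part of these in its values was not tested.

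Sed replicate 5 stood high in its group in Ube2o (55.2 CPM, next 39.2), Usp5 (83.5, next 63.4), Usp14 (70.5, next 54.5), Usp39 (34.3, next 28.6) and Ube2d3 (231, next 206). Single rats were CC-Sed replicate 4 in Ube2a (29.6 CPM, next 23.0), Ex replicate 6 in Ube2l6 (2.92, next 1.72), Ex replicate 1 in Usp14 (57.2, next 50.6), Ex replicate 5 in Otud1 (42.1, next 20.5) and CC-Ex replicate 2 in Otud1 (47.1, next 9.68). Ex replicate 4 was low in Usp9x (172 CPM, next 205).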

How the results depend on the processing

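In sedentary rats the E2 count (3) was 1 with a Log2FC of at least 1, 6 with DESeq2, 9 with limma-voom, 7 with the slow-fibre score as covariate and 5 with the 12 rats compared alone. The DUB count (0) was 3 with DESeq2, 11 with limma-voom, 2 with the library number, 10 with the slow-fibre score and 3 with the 12 rats alone. The share of all genes called (6.46%) moved as well, to 12.3% with DESeq2, 22.8% with limma-voom and 8.15% with the library number. It was 13.3% with the slow-fibre score, 9.0% with the 12 rats alone and 1.87% with a Log2FC of at least 1. In trained rats the E2 count (0) was 2 with DESeq2 and 4 with limma-voom, and the DUB count (0) was 1 with limma-voom. The share of all genes there (0.995%) was 6.31% with DESeq2 and 9.61% with limma-voom. In the pooled comparison a Log2FC of at least 1 left 0 E2 and 1 DUB genes, beside 2.88% of all genes. Leaving out 1 rat gave 0 to 6 E2 and 0 to 10 DUB calls in sedentary rats (highest without CC-Sed replicate 4). Of all genes, 1.59% to 15.9% were called in these fits. In trained rats it gave 0 to 4 and 0 to 3 calls (highest without CC-Ex replicate 4), beside 0.0184% to 7.81% of all genes. In the pooled comparison it gave 7 to 9 and 8 to 21, beside 20.3% to 35.3% of all genes. The training comparisons stayed at 0, as did the share of all genes in them. Of the alternatives for the members that passed, leaving aside Usp15 and Usp4, 672 kept the call and 126 lost it, and none changed direction. The cause of these changes was not tested.

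With the replicate number as a block, the counts were 2 E2 and 0 DUB calls in sedentary rats, 0 and 0 in trained rats, and 7 and 15 pooled. The shares of all genes were 5.1%, 0.00922% and 25.5%. Ube2j1 in sedentary rats lost its call under the block (Log2FC 0.99, edgeR adjusted p = 0.0562). The numbers do not pair the rats: residual correlations between same-numbered rats averaged 0.09 in Sed and CC-Sed (−0.50 to 0.36) and −0.17 in Ex and CC-Ex (−0.42 to 0.15).

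Signs reversed only in members with estimates near 0 that did not pass. Usp37 was −0.0042 with DESeq2, −0.073 with upper-quartile scaling, −0.031 with a mean of at least 5 CPM and −0.016 with limma-voom (−0.020 to 0.038 leaving out 1 rat). Usp10 was −0.017 with upper-quartile scaling and −0.043 with limma-voom (−0.019 to 0.11 leaving out 1 rat). Usp54 was −0.0075 with DESeq2, −0.071 with upper-quartile scaling, −0.032 with a mean of at least 5 CPM, −0.0069 with the slow-fibre score and −0.0042 with the replicate block (−0.040 to 0.025 leaving out 1 rat). Ube2m was 0.062 with the library number (−0.038 to 0.0081 leaving out 1 rat). Usp30 was −0.0081 with DESeq2, −0.083 with upper-quartile scaling, −0.039 with a mean of at least 5 CPM, −0.0073 with the library number and −0.0044 with the replicate block (−0.063 to 0.037 leaving out 1 rat). Usp19 was −0.057 with upper-quartile scaling, −0.015 with a mean of at least 5 CPM, −0.055 with limma-voom and −0.027 with the library number (−0.020 to 0.048 leaving out 1 rat).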
